A study of Mus musculus with 32 samples.

Results

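Fc receptors and Fc receptor-like genes are described here across B cell differentiation in mice with and without activated PIK3CD. The set holds 7 of the 53465 genes of the count table, taken by gene symbol: Fcmr, Fcgr2b, Fcer2a, Fcrl1, Fcrl5, Fcrla and Fcgrt. The study asks how activated PIK3CD signalling, that is, a more active delta form of phosphoinositide 3-kinase, alters RNA levels in 4 sorted populations: naive B cells, the dark zone and the light zone of the germinal centre, and plasma cells. Each library was made with SMART-Seq v4 from 500 cells sorted from spleens of C57BL/6 mice, 12 weeks old, on day 14 after an intraperitoneal injection of NP-CGG with alum, a protein antigen that calls for T cell help. The groups were AID-cre aPIK3CD and AID-cre WT, so that the WT mice carried the cre as well, with 4 libraries for each of the 4 populations and 2 genotypes (32 libraries). In the 4 libraries titled aPIK3CD replicate 1 the genotype field reads WT, and they were kept in the aPIK3CD group by title. Their columns in the count table are also named PIK3CD, where those of the WT libraries are named Control. Whether the allele was active in naive cells was not tested.

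Fc receptors bind the constant part of antibodies and tell a cell which antibody is around it. On B cells the best known, Fcgr2b, is inhibitory: when antigen bound by IgG links it to the B cell receptor, the tyrosine motif (ITIM) in its tail recruits the lipid phosphatase SHIP, which removes the product of phosphoinositide 3-kinase. Fcmr binds IgM, Fcer2a (CD23) is the low-affinity IgE receptor of mature follicular B cells, and Fcgrt, the neonatal Fc receptor, returns IgG from endosomes to the cell surface. Fcrl1 and Fcrl5 are Fc receptor-like surface proteins of B cells that adjust B cell receptor signals, and Fcrla is an Fc receptor-like protein that stays inside the cell and binds immunoglobulin in the endoplasmic reticulum.

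The genes lie on few chromosomes. Fcmr, Fcgr2b and Fcrla are on chromosome 1, Fcrl1 and Fcrl5 on chromosome 3, Fcgrt on chromosome 7 and Fcer2a on chromosome 8. Of the genes off chromosome 1, only Fcrl1 had enough counts to be tested between genotypes in plasma cells. The 3 genes on chromosome 1 are those that were higher in every aPIK3CD plasma cell library than in every WT plasma cell library, a separation in either direction that 14.7% of all genes tested showed. Their RefSeq promoters (build GRCm38.p6, 250 bases before to 50 bases after the start, 5′ to 3′ on the gene's strand) are shown with that of Fcrl1, the other gene tested in plasma cells, so that the genes that separated the genotypes can be set beside one that did not. Capitals mark matches to the motifs named after the sequences.
Fcmr, chr1:130865527-130865826, plus strand: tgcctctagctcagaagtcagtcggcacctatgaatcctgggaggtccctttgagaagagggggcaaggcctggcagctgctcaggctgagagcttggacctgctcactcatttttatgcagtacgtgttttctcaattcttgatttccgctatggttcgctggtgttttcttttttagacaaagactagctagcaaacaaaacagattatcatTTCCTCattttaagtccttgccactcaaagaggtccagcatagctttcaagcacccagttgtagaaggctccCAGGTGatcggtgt
Fcgr2b, chr1:170976022-170976321, minus strand: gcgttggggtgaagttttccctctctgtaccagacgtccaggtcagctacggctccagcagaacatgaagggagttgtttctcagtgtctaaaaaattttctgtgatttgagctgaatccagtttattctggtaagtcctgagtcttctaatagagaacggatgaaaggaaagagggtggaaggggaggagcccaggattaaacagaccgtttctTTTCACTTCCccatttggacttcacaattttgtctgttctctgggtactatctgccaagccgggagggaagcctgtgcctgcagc
Fcrla, chr1:170927534-170927833, minus strand: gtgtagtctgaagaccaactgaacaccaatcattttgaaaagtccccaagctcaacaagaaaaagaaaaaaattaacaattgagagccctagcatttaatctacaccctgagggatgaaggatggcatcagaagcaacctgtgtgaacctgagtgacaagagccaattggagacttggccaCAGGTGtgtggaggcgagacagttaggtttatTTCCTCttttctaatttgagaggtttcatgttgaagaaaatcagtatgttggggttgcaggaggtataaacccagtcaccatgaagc
Fcrl1, chr3:87376137-87376436, plus strand: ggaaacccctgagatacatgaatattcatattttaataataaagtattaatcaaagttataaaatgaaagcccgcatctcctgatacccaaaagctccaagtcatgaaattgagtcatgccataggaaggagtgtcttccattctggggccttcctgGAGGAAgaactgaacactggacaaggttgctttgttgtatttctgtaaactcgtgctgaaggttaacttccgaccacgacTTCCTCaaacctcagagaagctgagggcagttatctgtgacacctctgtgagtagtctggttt
In these windows 8 motifs were searched on both strands. GAGGAA, a core letter run of PU.1 sites, was found in Fcmr (first base at -36 from the start), Fcrla (-37) and Fcrl1 (-93 and -13), and 28.3% of 27025 promoters hold it. CAGGTG, an E2A letter run, was found in Fcmr (37) and Fcrla (-69), and 20.03% of promoters hold it. The composite element of an ETS factor with an IRF factor was found in Fcgr2b (-35), and 2.79% of promoters hold it. The other 5 motifs were ATGCAAAT (octamer), GTAAACA (FOXO), GTGGGAA (RBPJ) and the palindromes of STAT6 and EBF1, and of these GTAAACA was found in the Fcgrt promoter (-116, in 3.55% of promoters). None of the other 4 was found in the first promoter of any of the 7 genes. Fcer2a has 3 annotated starts, and the promoter of the second holds the STAT6 palindrome (-168) and CAGGTG (-244 and -99). Such matches describe the letters and show no binding.

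Total counts were 1154809 to 1941224 in dark zone, 902088 to 1835558 in light zone, 652722 to 788999 in aPIK3CD plasma and 473149 to 704361 in WT plasma cell libraries, and 1965329 to 2820830 in naive libraries. Dark zone WT replicate 3 stood apart with 25797 counts, 25 of them from the 7 genes. Some WT dark zone values are therefore also given without it, and the rest include it. Summed plasma cell markers (8 genes) were 11489 to 14900 CPM in plasma cells and at most 2949 CPM elsewhere, and summed germinal centre markers (8 genes) were 2055 to 3230.0 CPM in both zones and at most 337 CPM elsewhere. The zones were less apart. Summed light zone markers (7 genes) were 1645 to 2400.5 CPM in light zone and 667 to 1364 CPM in dark zone cells, but 1443 to 1798 CPM in naive B cells. Summed dark zone markers (6 genes) were 916 to 1137 CPM in light zone and 1088 to 1467 CPM in dark zone cells, with an overlap through dark zone WT replicate 3. Pik3cd RNA did not pass the test between genotypes in any population (in plasma cells 73.7 ± 18.9 CPM in aPIK3CD and 115 ± 9.36 CPM in WT, edgeR adjusted p = 0.0733), and RNA levels do not check an activating allele. All values below are CPM (counts scaled to the TMM-adjusted library size), and a test was passed when the Benjamini-Hochberg adjusted p of edgeR's quasi-likelihood F test was below 0.05.

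In plasma cells Fcmr, the IgM receptor, and Fcgr2b, the inhibitory IgG receptor, were higher in aPIK3CD than in WT. Both results depended on the setting of the fit, as given below, and that on Fcgr2b was the less firm. Fcmr had 378, 495, 379 and 353 CPM in the aPIK3CD libraries, against 178, 130.002, 167 and 203 CPM in the WT libraries. The lowest aPIK3CD library was far above the highest WT library. The means were 401 ± 63.7 CPM in aPIK3CD and 169.6 ± 30.5 CPM in WT (SD, n = 4), a 2.32-fold difference (log2 fold change 1.21, SE 0.17, edgeR adjusted p = 0.00887), and Fcmr ranked 6 by p among 7771 genes tested. Fcgr2b had 534, 564, 438 and 476 CPM in aPIK3CD and 349, 299, 338 and 284 CPM in WT plasma cells. Here too no library of one genotype reached into the range of the other. Its means were 503 ± 56.5 CPM in aPIK3CD and 317 ± 31.0 CPM in WT, a 1.55-fold difference (log2 fold change 0.63, SE 0.13, edgeR adjusted p = 0.0256).

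Fcrla, the intracellular member, had 776, 707, 622 and 786 CPM in aPIK3CD plasma cells and 566, 559, 599 and 477 CPM in WT plasma cells. All aPIK3CD libraries lay above all WT libraries, by a narrow margin between 622 and 599 CPM, and the difference did not pass the test (log2 fold change 0.36, SE 0.11, edgeR adjusted p = 0.0850). Fcrl1 averaged 94.8 ± 19.7 CPM in aPIK3CD and 100.3 ± 17.3 CPM in WT plasma cells, with overlapping libraries (log2 fold change -0.11, 95% interval -0.48 to 0.26, edgeR adjusted p = 0.765). Of the 7 genes, 4 passed the filter on low counts in this comparison and 2 of these rose, where 1.98% of all genes tested rose and 3.2% passed in either direction. Libraries of the genotypes did not overlap for 3 of the 4 genes that passed the filter, which held for 14.7% of all genes tested.

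The 3 genes below the filter were sparse in plasma cells of both genotypes. Fcer2a had 5 counts in all (0 to 5.88 CPM) in the 4 aPIK3CD libraries and 21 counts (2.17 to 19.7 CPM) in the 4 WT libraries. Fcrl5 had 34 counts in aPIK3CD and 23 in WT, and Fcgrt 8 in aPIK3CD and 4 in WT. Tested without the filter, these had edgeR adjusted p values of 0.194 for Fcer2a, 0.811 for Fcrl5 and 0.790 for Fcgrt. At 2833814 counts over the aPIK3CD and 2261706 over the WT plasma cell libraries, differences in these genes were not resolved.

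**Figure D1:**
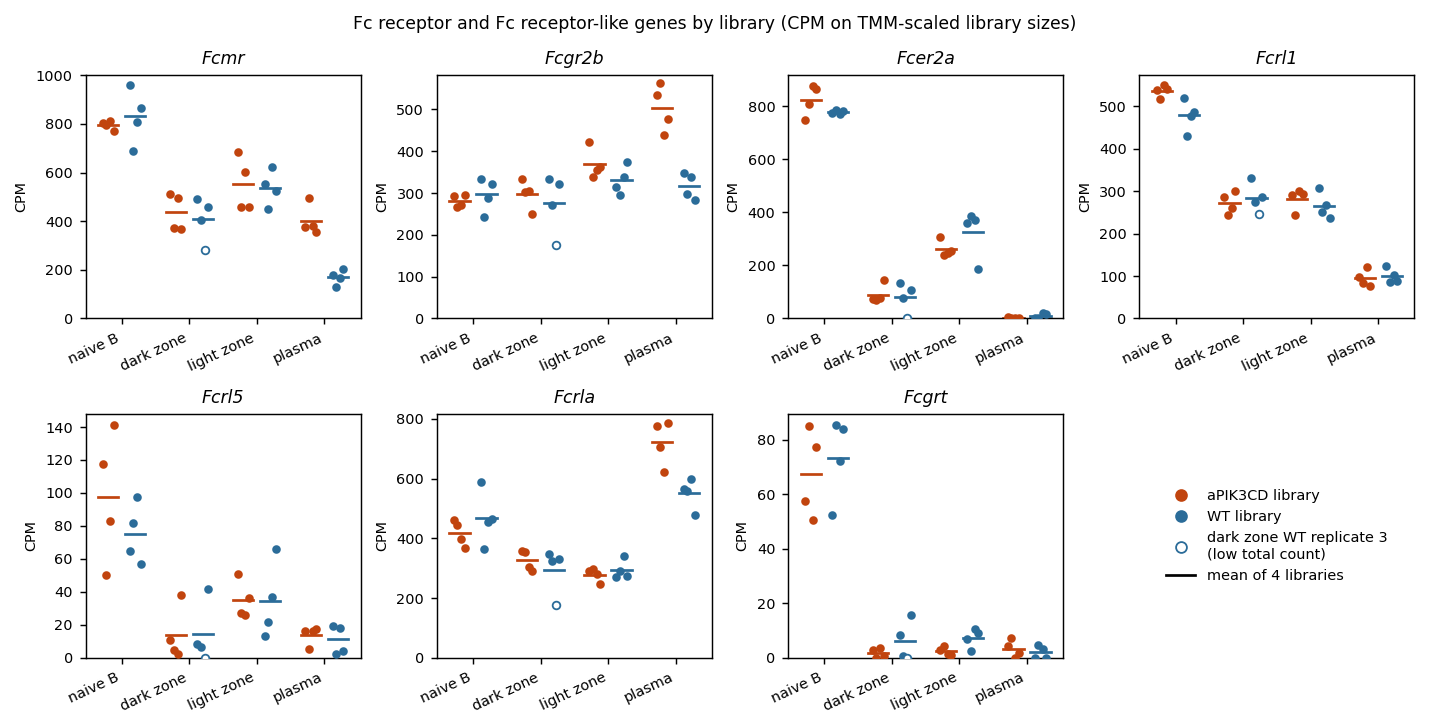
CPM (linear axis, on TMM-adjusted library sizes) of the 7 genes in the 32 libraries, with aPIK3CD left of WT in each population; points are libraries, bars are means of 4 libraries, and the open point is dark zone WT replicate 3. In plasma cells the Fcmr, Fcgr2b and Fcrla points of aPIK3CD lie above those of WT, and Fcrla and Fcgr2b have their highest means there in aPIK3CD. Fcer2a falls close to 0 in plasma cells, and Fcgrt in both zones and in plasma cells.

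The call on Fcmr held in all 8 fits that left out 1 plasma cell library (log2 fold change 1.09 to 1.32), and that on Fcgr2b was lost in 6 of them, without any 1 of the aPIK3CD replicates 1, 2, 3 and 4 or of WT replicates 1 and 2 (edgeR adjusted p up to 0.0685, log2 fold change 0.57 to 0.69). Both lost the call when replicate 1 of aPIK3CD was moved to WT, as its genotype field reads, against its title and column name. The log2 fold change was then 0.94 for Fcmr (edgeR adjusted p = 0.208) and 0.44 for Fcgr2b (edgeR adjusted p = 0.324). The aPIK3CD plasma cell libraries had more counts than most of the WT ones, and with log2 total count as a covariate the log2 fold change was 1.28 for Fcmr (edgeR adjusted p = 0.132) and 0.59 for Fcgr2b (edgeR adjusted p = 0.237). Fcrla passed with the DESeq2 Wald test (adjusted p = 0.0347) and without immunoglobulin and T cell receptor genes (adjusted p = 0.0304). In bulk samples fewer cells that make an RNA and less of it in each cell cannot be told apart.

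**Figure D2:**
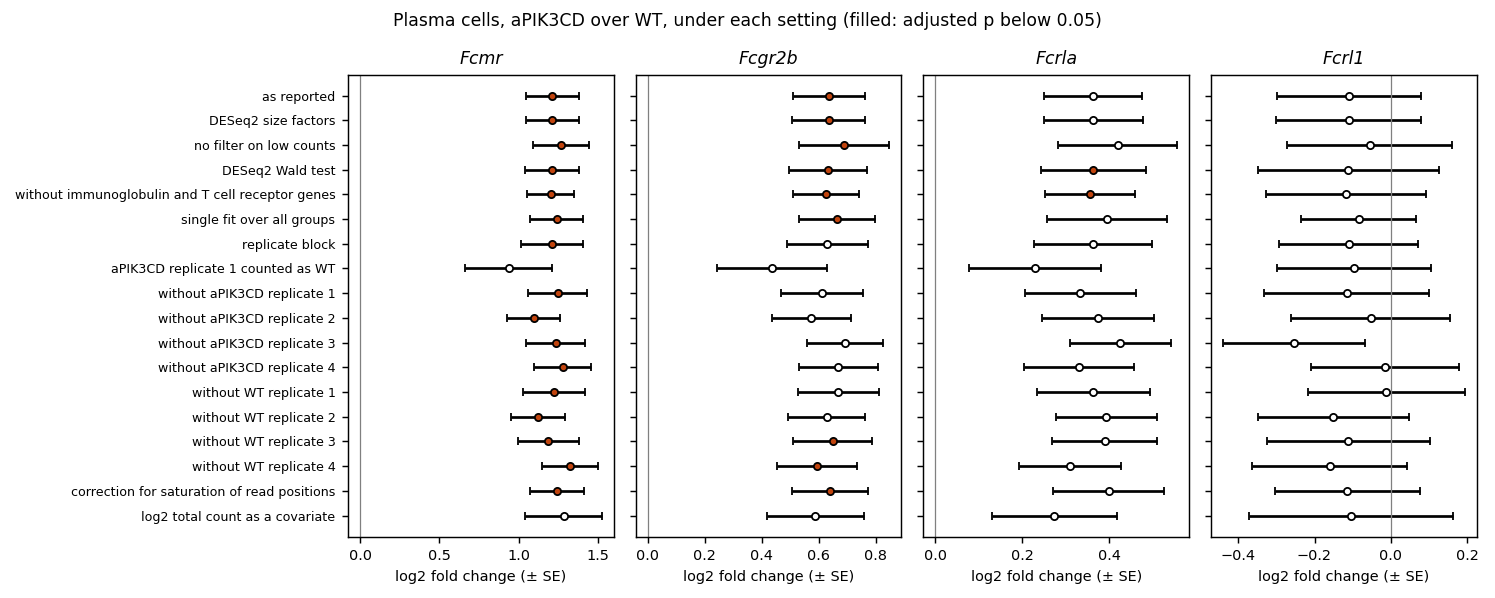
Log2 fold change of aPIK3CD over WT in plasma cells (x axis, with SE) for the 4 genes tested, in each setting of the fit (rows); filled points have an adjusted p below 0.05. Fcmr stays between 0.94 and 1.32, Fcgr2b between 0.44 and 0.69 and Fcrla between 0.23 and 0.43, while Fcrl1 stays between -0.25 and -0.01.

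Markers of cells that carry other Fc receptors were read beside these values. The list of monocyte, macrophage and neutrophil markers (14 genes) summed to 1295 to 1875 CPM in aPIK3CD and 1416 to 1589 CPM in WT plasma cells. Fcgr1, S100a8, S100a9 and Itgam were at 0 in all 8 libraries. Most of this sum was Ly6c2, with 1133 ± 69.1 CPM in aPIK3CD and 1219 ± 236 CPM in WT plasma cells. The other 13 genes summed to 253, 673, 231 and 662 CPM in the aPIK3CD libraries and to 316, 60.2, 451 and 252 CPM in the WT libraries, which overlap (means 454 ± 246 CPM in aPIK3CD and 269.9 ± 163 CPM in WT). Memory B cell markers (7 genes) summed to 111 to 210 CPM in aPIK3CD and 89.1 to 199 CPM in WT. Natural killer cell markers (5 genes) summed to 38.2 to 246 CPM in aPIK3CD and 35.0 to 111 CPM in WT plasma cells. Follicular dendritic cell markers (6 genes) summed to 18.1 to 57.2 CPM in aPIK3CD and 32.5 to 43.3 CPM in WT. Erythroid markers (5 genes) summed to 0 to 252 CPM in aPIK3CD, the highest in replicate 4, and 0 to 6.57 CPM in WT. Naive B cell markers (7 genes) were lower in every aPIK3CD plasma cell library, with sums of 529 to 613 CPM in aPIK3CD and 621 to 888 CPM in WT. The sums overlapped for plasma cell markers (8 genes, 11489 to 13243 CPM in aPIK3CD and 12543 to 14900 CPM in WT), marginal zone and B1 cell markers (10 genes, 2305 to 2426 CPM in aPIK3CD and 2375 to 2915 CPM in WT), dendritic cell markers (7 genes, 934 to 1032 CPM in aPIK3CD and 968 to 1290.4 CPM in WT) and T cell markers (7 genes, 262 to 362 CPM in aPIK3CD and 197 to 579 CPM in WT). The part of these lists in the result was not tested. Fcgr3, the activating relative of Fcgr2b whose extracellular part is much alike, had 9 counts over the aPIK3CD and 6 over the WT plasma cell libraries, while Fcgr2b had 1215 in aPIK3CD and 621 in WT, and how reads that match both genes were counted was not tested. In the annotation, 155 of the 5790 exonic bases of Fcgr2b also belong to Gm38204 on the opposite strand, and none of the labels says whether counting used the strand.

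Related genes were measured in the same plasma cell comparison. Of 12 other Fc receptor genes 2 were tested and 0 passed (1 at an unadjusted p below 0.05, 0 with DESeq2), with Trim21, a cytosolic antibody receptor, at a log2 fold change of 1.02 (edgeR adjusted p = 0.173) and Fcer1g, the signalling chain of activating Fc receptors, at 0.12 (adjusted p = 0.885). Of 12 signalling proteins used by ITIM receptors 10 were tested and 0 passed (2 at an unadjusted p below 0.05, 1 with DESeq2, higher), with a median of 0.14, beside a median of -0.0028 over all genes tested. In that list Blnk, an adaptor of B cell receptor signals, had 0.35 (edgeR adjusted p = 0.0545), Dok3, an inhibitory adaptor, 0.44, and Ptpn6, the phosphatase SHP-1, 0.32. Of 10 other inhibitory B cell receptors 4 were tested and 0 passed (0 at an unadjusted p below 0.05, 0 with DESeq2), with a median of 0.12. Of 9 partners and inducers of Fcer2a and Fcgrt 7 were tested and 0 passed (2 at an unadjusted p below 0.05, 1 higher and 1 lower with DESeq2), with B2m, the light chain that Fcgrt needs, at -0.36 (edgeR adjusted p = 0.0779). Of 9 genes of immunoglobulin ligands 7 were tested and 1 fell (3 at an unadjusted p below 0.05, 2 lower with DESeq2), with a median of -0.33. It was Igha, the IgA heavy chain (log2 fold change -0.60, edgeR adjusted p = 0.0256). Ighm, the heavy chain of the IgM that Fcmr binds, had -0.33 (edgeR adjusted p = 0.105) and Jchain -0.41 (edgeR adjusted p = 0.0550). Immunoglobulin genes had the highest counts per exonic base in any library (2.07 for Igkv5-39 and 1.89 for Iglc1). Plasma cell libraries held 2833814 counts in aPIK3CD and 2261706 in WT. Whether a limit on counts per base lowered the CPM of Igha, Ighm and Jchain in aPIK3CD was not tested. An unadjusted p below 0.05 was reached by 1809 genes, among them Fcmr, Fcgr2b and Fcrla.

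Before the plasma cell stage none of the 7 genes passed the test between genotypes. In naive B cells 0 of 7 passed (0% of 10421 genes, with 319 genes and 0 of the 7 at an unadjusted p below 0.05, and 0 of the 7 with the DESeq2 Wald test). Fcmr averaged 796 ± 18.6 CPM in aPIK3CD and 831 ± 114 CPM in WT naive B cells (log2 fold change -0.07, 95% interval -0.25 to 0.11). Fcgr2b averaged 282 ± 14.1 CPM in aPIK3CD and 297 ± 40.6 CPM in WT (-0.08, -0.31 to 0.14). Both intervals end below the log2 fold changes of these genes in plasma cells. Fcer2a was at 824 ± 58.8 CPM in aPIK3CD and 778 ± 6.73 CPM in WT naive B cells, and Fcrl1 at 536 ± 14.6 CPM in aPIK3CD and 479 ± 37.2 CPM in WT. The widest interval was that of Fcrl5 (0.36, -0.21 to 0.94), whose libraries spread from 49.9 to 141 CPM in aPIK3CD and from 56.7 to 97.7 CPM in WT.

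In dark zone cells 0 of 6 genes tested passed (0.021% of 9539 genes, with 715 genes and 0 of the 7 at an unadjusted p below 0.05, and 0 of the 7 with the DESeq2 Wald test), and in light zone cells 0 of 6 (0% of 9860 genes, with 654 genes and 0 of the 7 at an unadjusted p below 0.05, and 0 of the 7 with the DESeq2 Wald test). Fcmr averaged 436 ± 76.7 CPM in aPIK3CD and 408 ± 91.9 CPM in WT dark zone cells (451 ± 43.4 CPM over the 3 WT libraries without replicate 3). In light zone cells it averaged 552 ± 111 CPM in aPIK3CD and 537 ± 71.1 CPM in WT (log2 fold change 0.03, 95% interval -0.23 to 0.29). Fcgr2b in light zone cells was at 369.8 ± 36.5 CPM in aPIK3CD and 331 ± 34.4 CPM in WT (0.15, -0.07 to 0.38). Fcer2a in light zone cells was at 309, 239, 246 and 255 CPM in aPIK3CD and at 361, 386, 373 and 188 CPM in WT. The aPIK3CD libraries lay below 3 of the WT libraries and above the remaining one, and the difference did not pass (log2 fold change -0.33, SE 0.17, edgeR adjusted p = 0.764). Fcgrt was below the filter in both zones, with 12 counts in aPIK3CD and 37 in WT dark zone cells, and 14 in aPIK3CD and 44 in WT light zone cells. Tested without the filter it had edgeR adjusted p values of 0.452 in the dark zone and 0.646 in the light zone.

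**Figure D3:**
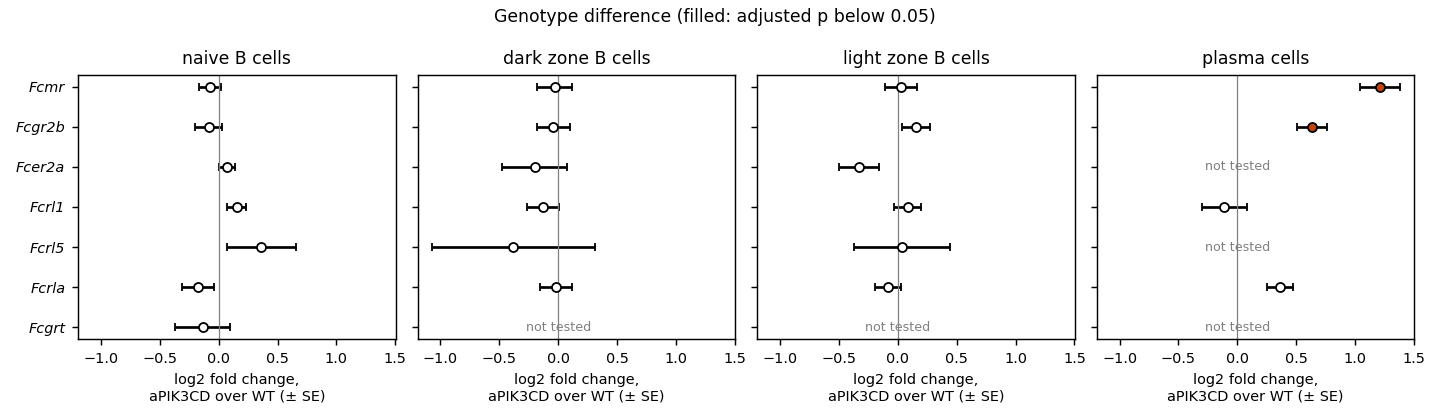
Log2 fold change of aPIK3CD over WT (x axis, with SE) for the 7 genes in each population, n = 4 libraries a group; filled points have an adjusted p below 0.05 and genes below the filter are marked as not tested. In plasma cells Fcmr (1.21) and Fcgr2b (0.63) are filled, and in the other 3 populations no point is.

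The difference between populations was itself tested in a single fit over the 32 libraries, with 3 degrees of freedom for the genotype effect among the 4 populations. This fit took the libraries as independent, with no term for the mouse, and the labels do not say which libraries share a mouse. Fcmr passed (edgeR adjusted p = 0.0164, rank 2 of 11736 genes by p), where 0.0256% of genes passed. In this fit its genotype effect in plasma cells was larger than that in naive B cells by 1.32 on the log2 scale, and that in dark and light zone cells by 0.06 and 0.12. Fcgr2b had 0.75 for plasma cells minus naive B cells and did not pass (edgeR adjusted p = 0.296), nor did Fcrla with 0.57 (edgeR adjusted p = 0.632). For Fcmr the call was lost when replicate 1 of aPIK3CD was moved to WT (edgeR adjusted p = 0.389) and without plasma WT replicate 2 (adjusted p = 0.0741, over the alternatives from 9.15e-08 to 0.389). Fcgr2b passed with the DESeq2 likelihood ratio test (adjusted p = 0.0420) and Fcer2a without a filter on low counts (adjusted p = 0.0235).

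From naive B cells to plasma cells the 7 genes went different ways. Levels between genes are compared per kilobase of exon (RPKM). In naive B cells Fcmr was the highest of the 7 at 458 RPKM in aPIK3CD and 479 RPKM in WT, and Fcrl5 the lowest at 28.1 RPKM in aPIK3CD and 21.6 RPKM in WT. In plasma cells Fcrla was the highest, at 414 ± 43.4 RPKM in aPIK3CD and 315 ± 29.7 RPKM in WT, followed by Fcmr at 231 ± 36.7 RPKM in aPIK3CD and 97.7 ± 17.5 RPKM in WT and by Fcgr2b at 86.9 ± 9.77 RPKM in aPIK3CD and 54.8 ± 5.35 RPKM in WT. Fcmr and Fcrla were the first and second in both zones in both genotypes. Next in plasma cells came Fcrl1, at 26.6 RPKM in aPIK3CD and 28.2 RPKM in WT, and the means of Fcer2a, Fcrl5 and Fcgrt there were 0.622 to 3.98 RPKM in aPIK3CD and 0.963 to 3.2003 RPKM in WT.

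Plasma cells differed from naive B cells in 7 of 7 genes in aPIK3CD, with 2 higher and 5 lower (52.8% of all genes passed, 26.5% higher and 26.2% lower), and in 6 of 7 in WT, with 1 higher and 5 lower (49.6%, with 25.4% higher and 24.2% lower). Fcer2a, Fcgrt, Fcrl5, Fcrl1 and Fcmr were lower in both genotypes. Fcer2a fell furthest of the 7, by a log2 fold change of -8.44 in aPIK3CD (SE 0.33, edgeR adjusted p = 1.36e-09) and -6.02 in WT (SE 0.33, edgeR adjusted p = 2.53e-09). Its mean was 1.92 ± 2.77 CPM in plasma cells against 824 ± 58.8 CPM in naive B cells of aPIK3CD mice, and 9.90 ± 8.97 CPM in plasma cells against 778 ± 6.73 CPM in naive B cells of WT mice. With 5 counts in the aPIK3CD plasma cell libraries its size is loosely set, and without 1 library it ranged from -10.18 to -8.03 in aPIK3CD, the first without plasma aPIK3CD replicate 1, and from -6.73 to -5.75 in WT. The log2 fold changes were -4.17 in aPIK3CD and -4.94 in WT for Fcgrt, -2.64 in aPIK3CD and -2.53 in WT for Fcrl5, and -2.35 (SE 0.14) in aPIK3CD and -2.09 (SE 0.16) in WT for Fcrl1. Fcmr was 1.79-fold lower in plasma cells than in naive B cells in aPIK3CD (-0.84, SE 0.11, edgeR adjusted p = 4.55e-05) and 4.35-fold lower in WT (-2.12, SE 0.17, edgeR adjusted p = 1.07e-07). Fcgr2b and Fcrla did not share this fall. Fcgr2b was 1.98-fold higher in plasma cells in aPIK3CD (0.99, SE 0.10, edgeR adjusted p = 6.49e-06), and in WT its difference did not pass (0.27, SE 0.15, edgeR adjusted p = 0.156). Fcrla was 1.92-fold higher in aPIK3CD (0.94, SE 0.11, edgeR adjusted p = 1.39e-05) and 1.32-fold higher in WT (0.40, SE 0.16, edgeR adjusted p = 0.0497), where the libraries overlapped and the call was lost in 7 of 8 fits without 1 library.

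**Figure D4:**
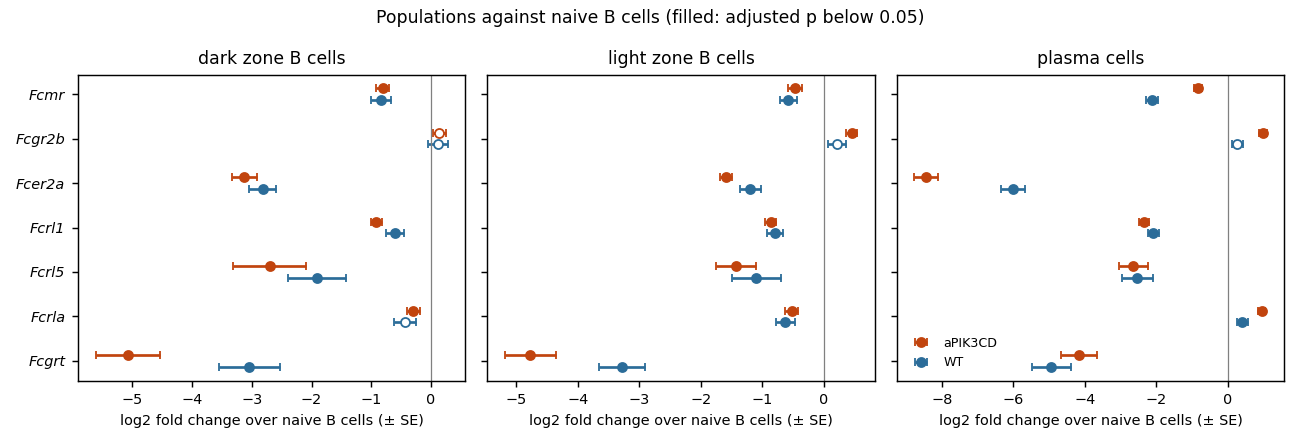
Log2 fold change of dark zone, light zone and plasma cells over naive B cells (x axis, with SE; the scale differs between panels) in aPIK3CD and WT, n = 4 libraries a group; filled points have an adjusted p below 0.05. Fcgrt lies far to the left in every panel. In plasma cells Fcer2a lies far to the left and Fcgr2b and Fcrla lie to the right of 0. For Fcmr the aPIK3CD point (-0.84) lies to the right of the WT point (-2.12) there.

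Other genes of antibody sensing moved between the same populations, where 26.5% of all genes tested were higher and 26.2% lower in aPIK3CD, and 25.4% higher and 24.2% lower in WT. Of 10 other inhibitory B cell receptors 7 were tested in plasma cells against naive B cells in aPIK3CD and 7 fell, and in WT 9 were tested and 8 fell. They included Cd22 (log2 fold change -9.37 in aPIK3CD and -8.11 in WT), Siglecg (-4.63 in aPIK3CD and -4.78 in WT) and Cd72 (-5.48 in aPIK3CD and -5.24 in WT), all of which carry an ITIM. Of the signalling proteins used by ITIM receptors 2 rose and 6 fell of 10 tested in either genotype, with Lyn, the kinase that phosphorylates ITIMs, at -1.89 in aPIK3CD and -2.05 in WT and Btk, a kinase of B cell receptor signalling, at -1.59 in aPIK3CD and -1.57 in WT. Of 3 other Fc receptor genes tested in either genotype 1 rose and 2 fell: Fcer1g rose (1.62 in aPIK3CD and 1.17 in WT), and Trim21 and Pigr fell. B2m rose by 2.26 in aPIK3CD and 2.54 in WT, while Fcgrt, which pairs with its product, had 8 counts in aPIK3CD and 4 in WT plasma cells. Of the immunoglobulin ligand genes 7 rose and 1 fell of 8 tested in either genotype, Ighm by 2.36 in aPIK3CD and 2.66 in WT.

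In dark zone cells 6 of 7 genes were lower than in naive B cells in aPIK3CD (43.6% of all genes passed, 22.2% higher and 21.4% lower) and 5 of 7 in WT (41.4%, with 19.8% higher and 21.6% lower). Fcgr2b was the gene that did not pass in either genotype, with 298 ± 34.1 CPM in aPIK3CD and 275 ± 71.9 CPM in WT dark zone cells (309 ± 33.1 CPM without replicate 3). Fcer2a had log2 fold changes of -3.13 (SE 0.21) in aPIK3CD and -2.82 (SE 0.22) in WT. Fcgrt, at 0 to 3.42 CPM in aPIK3CD and 0 to 15.6 CPM in WT dark zone cells, had -5.08 (SE 0.54) in aPIK3CD and -3.04 (SE 0.51) in WT. The other falls were -2.70 in aPIK3CD and -1.91 in WT for Fcrl5, -0.91 in aPIK3CD and -0.61 in WT for Fcrl1, and -0.81 in aPIK3CD and -0.84 in WT for Fcmr. Without replicate 4 of the dark zone, Fcrl5 had -3.88 in aPIK3CD and -3.23 in WT, and Fcgrt -3.89 in WT, and these calls held. Among 10 other inhibitory B cell receptors 5 fell of 7 tested in aPIK3CD and 6 of 8 in WT, and of 9 partners and inducers 5 fell in aPIK3CD and 3 in WT. Fcrla had -0.30 in aPIK3CD (edgeR adjusted p = 0.0493) and -0.44 in WT (edgeR adjusted p = 0.0654), and it passed in WT when DESeq2's size factors were used (-0.60, edgeR adjusted p = 0.0110) and without replicate 3 of the WT dark zone (-0.43, edgeR adjusted p = 0.0420), which gave 6 of 7 in WT. The aPIK3CD call on Fcrla was lost in 6 of 8 fits without 1 library and in 9 of all 16 alternatives (edgeR or DESeq2 adjusted p 0.0104 to 0.141), which leaves 5 of 7 in aPIK3CD.

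In light zone cells 7 of 7 genes differed from naive B cells in aPIK3CD, 1 higher and 6 lower (42.6% of all genes passed, 21.8% higher and 20.8% lower), and 6 of 7 were lower in WT (40%, with 19.8% higher and 20.2% lower). Fcgr2b was the higher one, at 338 to 422 CPM in aPIK3CD light zone cells against 267 to 295 CPM in aPIK3CD naive B cells (log2 fold change 0.45, SE 0.09, edgeR adjusted p = 0.00195). It was, in WT mice, at 294 to 375 CPM in light zone cells and 243 to 334 CPM in naive B cells (0.21, SE 0.15, edgeR adjusted p = 0.279). Fcer2a had log2 fold changes of -1.59 (SE 0.09) in aPIK3CD and -1.20 (SE 0.17) in WT. Those of Fcgrt were -4.77 in aPIK3CD and -3.28 in WT, those of Fcrl5 -1.43 in aPIK3CD and -1.10 in WT, and those of Fcrl1 -0.86 in aPIK3CD and -0.80 in WT. Fcrla had -0.53 in aPIK3CD and -0.63 in WT, and Fcmr -0.47 in aPIK3CD and -0.58 in WT. Fcrl5 lost its call in WT in 5 of 8 fits without 1 library.

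Between the zones 1 gene passed, Fcer2a, in 1 of 6 tested in aPIK3CD (6.04% of all genes passed, 3.13% higher and 2.91% lower) and 1 of 7 in WT (2.55%, with 1.3% higher and 1.26% lower). It had 309, 239, 246 and 255 CPM in light zone and 71.7, 68.7, 76.7 and 143 CPM in dark zone cells of aPIK3CD mice. In WT mice it had 361, 386, 373 and 188 CPM in light zone and 134, 76.2, 0 and 109 CPM in dark zone cells, the 0 being the library of 25797 counts. Every light zone library was above every dark zone library. The difference was 2.90-fold in aPIK3CD (log2 fold change 1.54, SE 0.21, edgeR adjusted p = 0.000327) and 3.14-fold in WT (1.65, SE 0.23, edgeR adjusted p = 0.000543), and without the shallow library the WT value was 1.61 (edgeR adjusted p = 0.00172). Cr2, the complement receptor CD21 that associates with CD23, rose in the light zone of aPIK3CD mice by 0.50 (edgeR adjusted p = 0.0103), and in WT it had 0.49 (edgeR adjusted p = 0.118), where 0 of 9 partners and inducers of Fcer2a and Fcgrt passed (2 at an unadjusted p below 0.05, 0 with DESeq2). Fcmr had log2 fold changes of 0.34 (SE 0.14) in aPIK3CD and 0.28 (SE 0.15) in WT that did not pass (edgeR adjusted p = 0.190 in aPIK3CD and 0.369 in WT). With the replicate number as a block 3 genes passed in aPIK3CD, with Fcmr at 0.34 (edgeR adjusted p = 0.0203) and Fcrl5 at 1.77 (edgeR adjusted p = 0.0352) beside Fcer2a. Without the block Fcrl5 had 1.28 (edgeR adjusted p = 0.225), and without dark zone aPIK3CD replicate 4 it had 2.47 (edgeR adjusted p = 0.00829). The labels give the same number to 1 library of each population and genotype and do not say that these share a mouse. In the dark zone Fcrl5 was at 38.1 CPM in aPIK3CD replicate 4 and 41.6 CPM in WT replicate 4, and at 0 to 11.03 CPM in the other 6 libraries. Those 2 libraries also had the highest summed memory B cell markers of the zone (7 genes, 348 CPM in aPIK3CD replicate 4 and 351 CPM in WT replicate 4, against 70.2 to 231 CPM in the other 6), and their part in the Fcrl5 values was not tested.

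Plasma cells also differed from both zones. Against light zone cells 2 genes were higher and 4 lower of 6 tested in aPIK3CD (61.2% of all genes passed, 29.5% higher and 31.6% lower), and 1 higher and 3 lower of 6 in WT (56.4%, with 28.1% higher and 28.3% lower). Against dark zone cells 2 were higher and 2 lower of 6 tested in aPIK3CD (61.6%, with 30.6% higher and 31% lower), and 1 higher and 3 lower of 5 in WT (55.1%, with 28.4% higher and 26.7% lower). Fcrla was higher in plasma cells in all 4 of these comparisons, by 1.47 in aPIK3CD and 1.04 in WT against the light zone and by 1.23 in aPIK3CD and 0.86 in WT against the dark zone (SE 0.11 to 0.17). Fcgr2b was higher in aPIK3CD, by 0.53 (SE 0.12) against the light zone and 0.84 (SE 0.13) against the dark zone, and did not pass in WT (0.06 against the light zone and 0.17 against the dark zone). Fcmr was lower in WT plasma cells, with -1.54 (SE 0.16) against the light zone and -1.27 (SE 0.19) against the dark zone. In aPIK3CD it had -0.37 (SE 0.15, edgeR adjusted p = 0.0479, overlapping libraries, lost in 5 of 8 fits without 1 library and with the replicate block at 0.0704) against the light zone and -0.03 (95% interval -0.33 to 0.26) against the dark zone. Fcrl1 was lower in plasma cells in all 4 comparisons, with log2 fold changes of -1.49 to -1.28, and so was Fcer2a, with -6.82 to -3.17.

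Fcmr counts in naive B cells had a narrower range than the totals did. The highest value of any gene of at least 200 exonic bases in any library was 2.07 counts per exonic base (Igkv5-39), and Fcmr, with 1736 exonic bases, reached 1.25. Its counts were 1977 to 2170 in the 8 naive libraries, a 1.10-fold range over totals that differed 1.44-fold. The range was 1.22-fold for Fcgr2b, 1.24-fold for Fcrla, 1.38-fold for Fcrl1, 1.48-fold for Fcer2a, 2.32-fold for Fcgrt and 3.13-fold for Fcrl5. Fcer2a reached 0.77 and Fcrla 0.71 counts per exonic base in naive B cells, and Fcgr2b 0.14. In plasma cells Fcmr had at most 0.16. With a correction that assumes a limit of 2 counts per exonic base, which Igkv5-39 passed, added after seeing the data, Fcmr in plasma cells against naive B cells was -2.68 in WT in place of -2.12, the genotype difference of Fcmr in plasma cells was 1.24 (edgeR adjusted p = 0.00895), and Fcrla in WT plasma cells against naive B cells had 0.21 and did not pass (edgeR adjusted p = 0.343).

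**Figure D5:**
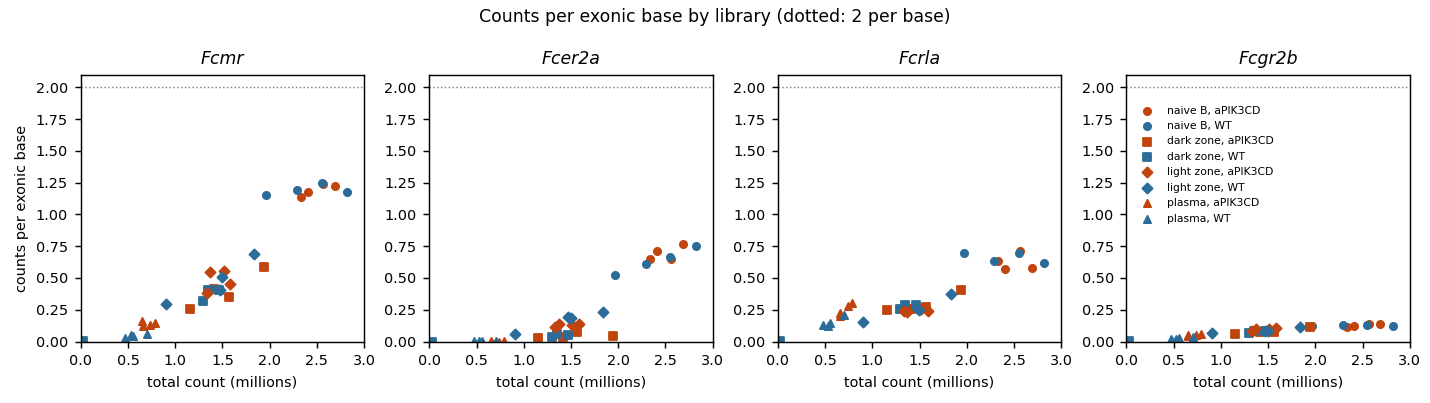
Counts per exonic base (y axis) against the total count of the library (x axis) for Fcmr, Fcer2a, Fcrla and Fcgr2b in the 32 libraries, by population and genotype. Fcmr lies at 1.14 to 1.25 in the 8 naive libraries, while Fcgr2b reaches 0.14.

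Over the 31 libraries of at least 100000 counts the 7 genes fell into patterns that are given as descriptions, since the libraries share their populations and depth. Fcer2a and Fcrl1 were the most alike pair (Pearson's r of log2 CPM 0.93) and Fcer2a and Fcrla the most opposed (-0.63). Among 9860 genes the closest to Fcmr were Cnpy3 (0.94) and Snx2 (0.92), to Fcgr2b Cyb561 (0.81) and Cct7 (0.80), and to Fcer2a Tgs1 and Ncf1 (both 0.97). The closest to Fcrl1 were Sash3 and Fam3c (both 0.97), to Fcrl5 Noc2l (0.87) and H2-K2 (0.86), to Fcrla Adipor1 and Ppp3cc (both 0.94), and to Fcgrt Ifi206 (0.92) and Gpat3 (0.91). Fcgr2b had the weakest best match of the 7.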

How the data were processed

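RNA sequencing of 32 libraries (8 groups of 4, grouped by title) was analysed from the deposited table of raw counts, whole numbers for 53465 genes. Per the submitters' processing notes the reads went through STAR 2.4.2a, HTSeq and Picard, with no further version or role. No source used here names the genome build. Exonic lengths came from GENCODE M21, which held 53274 of the gene IDs, and promoters of all 7 genes from RefSeq (GRCm38.p6).

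Each pair of groups was fitted alone in R 4.3.3 with edgeR 4.0.16 (TMM, filterByExpr with a minimum count of 10 and a minimum total of 15, two-sided quasi-likelihood F test, Benjamini-Hochberg over all genes tested, threshold 0.05). This gave 4 genotype and 12 population comparisons. The SE is the absolute log2 fold change over the square root of F, and 95% intervals are 1.96 SE either way. CPM are TMM-scaled over all libraries, as mean ± SD. Totals of 25797 to 2820830 counts set the precision, and labels do not say which libraries share a mouse, so p-values measure the spread between libraries.

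The 7 genes and the lists were chosen with earlier results of these data known. From each list at most the 3 genes with the smallest p are named, and for each gene the 2 with the highest correlation of log2 CPM. Some genes that this rule names are not reported here. The alternatives included DESeq2 1.42.0 (size factors, Wald and likelihood ratio tests), no filter, leaving out antigen receptor genes, a single fit over all groups, the replicate number as a block, aPIK3CD replicate 1 counted as WT, and leaving out each library. A saturation correction with an assumed limit of 2 counts per exonic base and log2 total count as a covariate were added after seeing the data. Deviations of samples with the same replicate number correlated weakly (-0.05 to 0.19) and in no comparison all above 0.1. The main fits did not take the numbers as pairs, but weak correlations cannot show that no mouse was shared. Within a genotype the count columns of the 4 populations share a name, a number and a letter.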

Additional observations from a re-analysis of the deposited data

Results flagged for a closer look

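The effect of activated PIK3CD on Fcmr differed among the 4 populations by the test of the difference itself (edgeR adjusted p = 0.0164), which had no term for the mouse.

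In 5 of 56 sets of 4 libraries (7 genes in 8 groups) a single library stood apart from the other 3, where chance gives about 1 in 20. Fcer2a was at 143 CPM in dark zone aPIK3CD replicate 4 against 68.7 to 76.7 CPM in the other 3, and at 188 CPM in light zone WT replicate 4 against 361 to 386 CPM. Fcrl1 was at 244 CPM in light zone aPIK3CD replicate 2 against 292 to 300.03 CPM in the other 3. Fcrl5 was at 5.42 CPM in plasma aPIK3CD replicate 2 against 16.1 to 17.8 CPM, a value of 3 counts. Fcrla was at 176 CPM in dark zone WT replicate 3, the library of 25797 counts, against 324 to 348 CPM.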

How the results depend on the processing

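Of 1908 values of single genes under alternatives, 1796 kept their direction and their side of the threshold, 47 lost the call, 23 gained it and 42 changed sign. In plasma cells 2 of the 7 genes passed between genotypes, against 3 with the DESeq2 Wald test and 3 without immunoglobulin and T cell receptor genes (Fcrla added in both), 1 with the replicate block, 0 with aPIK3CD replicate 1 counted as WT, 0 with log2 total count as a covariate and 1 to 2 without 1 library, and the cause was not tested. Over all genes this comparison gave 249 calls, and 2 to 694 under the alternatives. For light zone against dark zone in aPIK3CD, 1 gene passed, against 2 without a filter on low counts (Fcrl5 added), 3 with the replicate block (Fcmr and Fcrl5 added) and 1 to 2 without 1 library, where leaving out dark zone aPIK3CD replicate 4 gave 2. For the difference among populations, 1 passed, against 2 without a filter, 2 with the DESeq2 likelihood ratio test, 0 with aPIK3CD replicate 1 counted as WT and 0 to 1 without 1 library, 0 being without plasma WT replicate 2. No label states that libraries with the same replicate number share a mouse. In aPIK3CD all 4 libraries of dark zone against naive and of light zone against dark zone correlated best with their own number, a hint from the data. With the replicate block Fcgr2b lost its call in plasma cells between genotypes (edgeR adjusted p = 0.0643). Between genotypes the block joins libraries of different mice, so a shared number there cannot stand for a shared mouse.

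Values that changed sign were log2 fold changes that did not pass the test with all libraries. With aPIK3CD replicate 1 counted as WT they were 0.011 for Fcgrt in naive B cells, 0.033 for Fcer2a in the dark zone, -0.15 for Fcmr and -0.32 for Fcrl5 in the light zone between genotypes, and 0.055 for Fcmr and -0.16 for Fcrl5 in aPIK3CD plasma cells against the dark zone. For Fcrla between genotypes in the dark zone they were 0.0079 without a filter, 0.0043 with the DESeq2 Wald test and 0.021 with the replicate block. For Fcgr2b in WT they were -0.049 with DESeq2 size factors and -0.055 with the Wald test in the dark zone against naive B cells, and -0.038 without a filter in plasma cells against the light zone. For Fcrl5 in aPIK3CD plasma cells against the dark zone the value was -0.029 without a filter. Without 1 library the values between genotypes ranged from -0.15 to 0.016 for Fcmr in naive B cells, and in the dark zone from -0.10 to 0.054 for Fcmr, -0.056 to 0.036 for Fcrla, -0.0999 to 0.034 for Fcgr2b, -0.52 to 0.030 for Fcer2a and -1.57 to 0.93 for Fcrl5. In the light zone they ranged from -0.082 to 0.105 for Fcmr and -0.24 to 0.54 for Fcrl5. Between populations they ranged from -0.68 to 0.66 for Fcgrt in WT light zone against dark zone, -0.0035 to 0.14 for Fcgr2b in WT plasma cells against the light zone, and, in aPIK3CD plasma cells against the dark zone, -0.31 to 1.22 for Fcrl5 and -0.16 to 0.031 for Fcmr. Depth limits Fcer2a, Fcrl5 and Fcgrt in plasma cells and Fcgrt in both zones, where they had 4 to 44 counts over a group of 4 libraries.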
